A study of Arabidopsis thaliana with 12 samples.

Results

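The 7 genes described here are linked to auxin signalling and to the start of lateral roots in Arabidopsis thaliana. The arrays measured RNA, and neither auxin nor lateral roots are measured in the values used here. They are the auxin-conjugating enzyme genes GH3.1 (AT2G14960), GH3.3 (AT2G23170) and WES1 (AT4G27260), the transcriptional regulators IAA30 (AT3G62100) and HAT2 (AT5G47370), and the lateral root genes LBD16 (AT2G42430) and LBD29 (AT3G58190). They were chosen by name with earlier results of these data known, so counts over them are not those of genes picked blind to the data. Each had 1 probe set of its own, among 13286 genes that the probe annotation names in this way. A further 14 loci of the auxin and lateral root lists also had a probe set under a matching name and are accounted for below. The study measured total RNA from roots of wild-type Col-0 plants, labelled 3.90 weeks old, that were grown at 23 °C in hydroponic culture which was not sterile, after germination on 0.7% agarose. The 4 groups were pH 6 for 8 h, pH 4.5 for 8 h, pH 6 for 1 h and pH 4.5 for 1 h, each with 3 Affymetrix ATH1 arrays, and the study asked how roots respond to the external pH. The phosphate stock of the shared nutrient solution had pH 5.6, no untreated group is analysed here, and nothing in the labels tells whether the 3 samples of a group were grown apart. The p-values therefore cover the sample-to-sample spread within these groups, which can be purely technical.

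Auxin enters the nucleus and lets TIR1/AFB receptors mark Aux/IAA repressors for destruction, which frees the auxin response factors to switch on target genes. Among the early targets are GH3 genes, whose enzymes join the auxin indole-3-acetic acid to amino acids and so lower the free hormone, and further Aux/IAA genes, which close a feedback loop. In the pericycle, response factors switch on LBD16 and LBD29, and cells that express them divide to found a lateral root.

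All 12 arrays had a trimmed mean signal of 100 as deposited, and their median signals lay between 38.2 and 40.2. Across probe sets, which are not independent points, the correlation was 0.973 to 0.986 within groups and 0.948 to 0.976 between them. Of 13 root markers, the 3 with a named probe set (PYK10, EXPA7 and EXPA18) were measured on every array, with summed signals of 3020 to 4941, most of it from PYK10. Of 12 markers of green shoot tissue, the 3 with a named probe set (RCA, LHCB4.1 and PSAN) summed to 59.7 to 185. Differences below are on the log2(signal + 3.92) scale with their standard error (SE), which comes from a limma fit to all 12 arrays, 3 per group. Leaving out an array of any group can therefore change a call. Adjusted p-values come from that fit over 15922 probe sets, with 0.05 as the threshold. The added constant makes changes on this scale smaller than those of the signals. The effect is largest for genes near or under a signal of 10.4, the level to which the filter on dim probe sets corresponds. Signals of different genes come from different probes and are not set against each other.

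At 8 h, 4 of the 7 genes were lower at pH 6 than at pH 4.5 and 0 were higher. The 4 were LBD29, LBD16, GH3.3 and WES1, with folds from 2.56 for LBD29 to 1.43 for WES1. GH3.3 was dim and passed the filter on low signals only through its pH 4.5, 8 h arrays, so its place in this count carries no weight. GH3.1 fell short of the threshold, and IAA30 and HAT2 had differences close to 0. Over the 7 genes the median log2 difference was -0.52, beside 0.03 over all probe sets tested. Of all probe sets, 27.7% were called at 8 h by the same rule, 13.2% lower and 14.5% higher at pH 6. In 4 of the 7 genes (LBD29, LBD16, WES1 and GH3.1) all pH 6 arrays lay under all pH 4.5 arrays at 8 h, which held for 18.9% of all probe sets, while 22.3% were apart with pH 6 higher.

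Of the root markers, EXPA7, an expansin gene of root hairs, differed with pH at 8 h in the opposite direction to these 4 genes. Its signals were 125, 140.4 and 139 at pH 6 and 71.3, 77.6 and 54.6 at pH 4.5, without overlap (log2 difference 0.96 ± 0.15, adjusted p = 0.000105). EXPA18 (0.26 ± 0.14, adjusted p = 0.197) and PYK10 (0.01 ± 0.12, adjusted p = 0.969) were not called at 8 h, and none of the 3 root markers was called between the pH groups at 1 h (adjusted p from 0.15 for EXPA7 to 0.722 for EXPA18). Of the green shoot markers at 8 h, PSAN was lower at pH 6 (-1.11 ± 0.36, adjusted p = 0.0261) with overlapping arrays, while RCA (0.37 ± 0.20, adjusted p = 0.179) and LHCB4.1 (0.45 ± 0.17, adjusted p = 0.0542) were not called. The part of these markers in the results for the 7 genes was not tested.

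**Figure D1:**
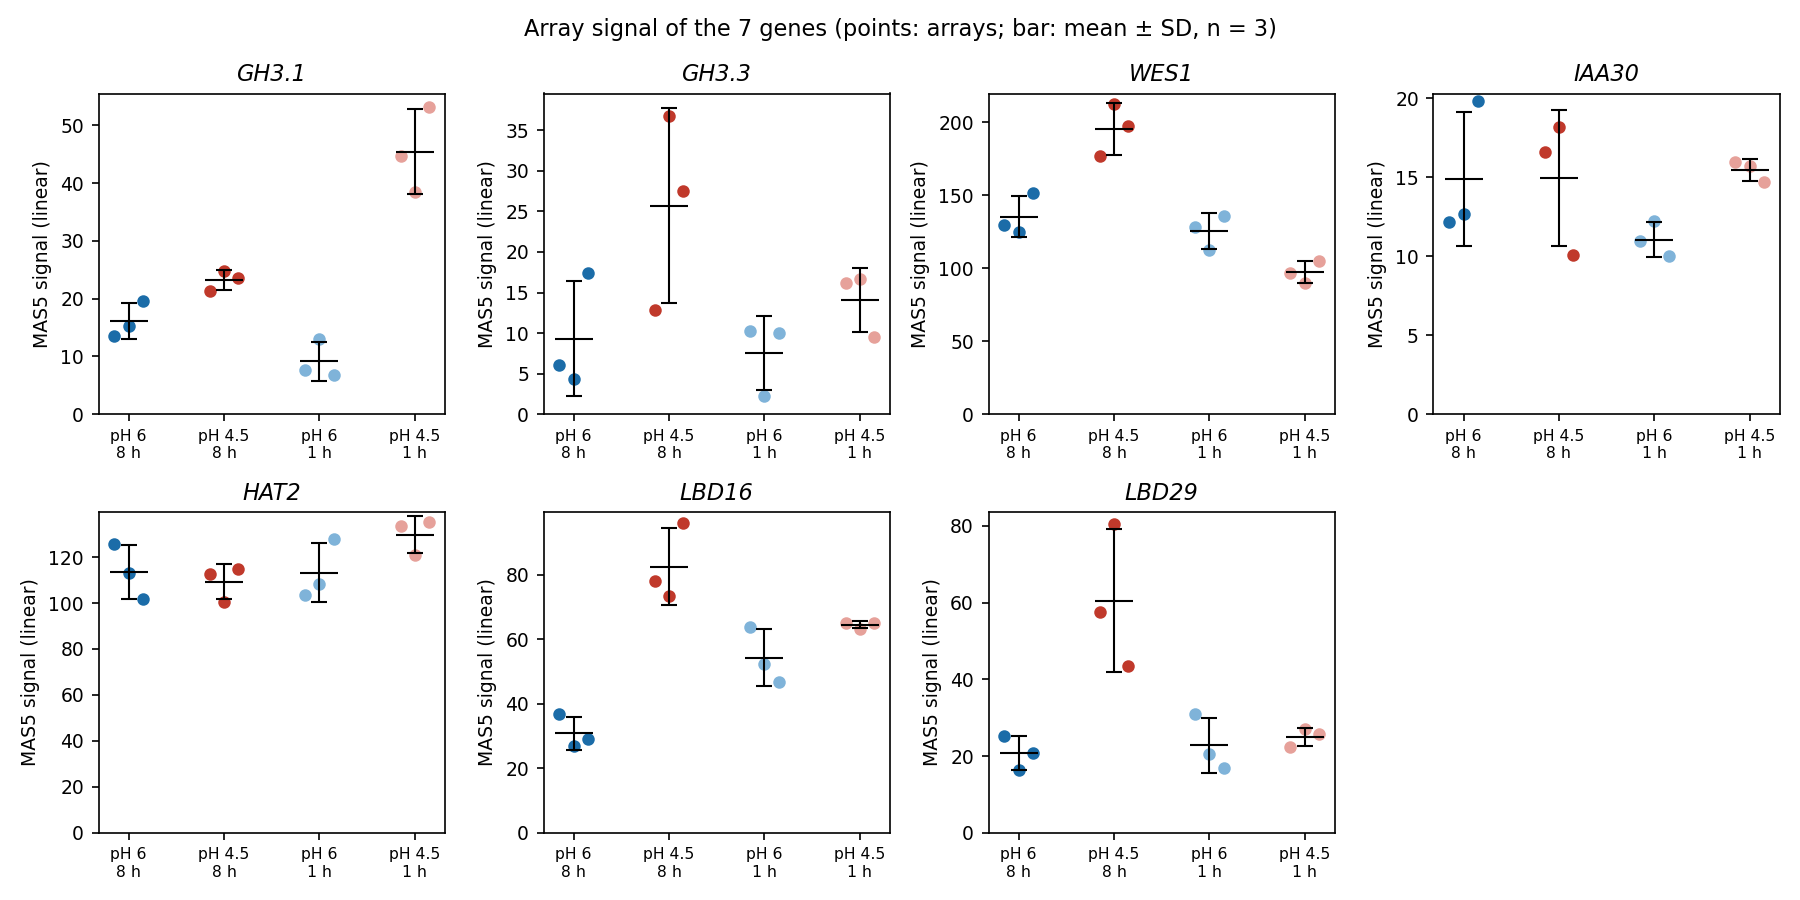
Signal (linear MAS5 scale, vertical axis from 0) of each of the 7 genes on every array, with groups on the horizontal axis. Points are arrays and the black bars are the mean ± SD of 3. LBD16, LBD29 and WES1 are highest in the pH 4.5, 8 h arrays, GH3.1 is highest in the pH 4.5, 1 h arrays, and the groups of IAA30 and of HAT2 overlap their neighbours in level.

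LBD16 encodes a LOB-domain transcription factor that acts in founder cells of lateral roots. At 8 h its signals were 36.7, 26.9 and 29.1 at pH 6, against 78.1, 73.5 and 96.0 at pH 4.5. At 1 h they were 63.95, 52.3 and 46.6 at pH 6, against 64.9, 63.3 and 65.2 at pH 4.5. The pH 6 arrays were clearly the lower ones at 8 h, while at 1 h the groups overlapped. The log2 difference at 8 h was -1.31 ± 0.15 (adjusted p = 1.64e-06), a 2.48-fold lower level at pH 6 on this scale and larger in size than that of 96.5% of probe sets. The mean signal at pH 6 was 37.5% of that at pH 4.5. At 1 h it was -0.24 ± 0.15, with a 95% interval from -0.55 to 0.07 (adjusted p = 0.343). The 2 effects differed by -1.07 ± 0.21 (adjusted p = 0.00134).

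LBD29, a second LOB-domain gene of the same step, had signals of 25.2, 16.4 and 20.9 at pH 6 and 57.5, 80.4 and 43.5 at pH 4.5 after 8 h. After 1 h the signals were 30.9, 20.5 and 16.9 at pH 6 and 22.5, 27.0 and 25.7 at pH 4.5. Only the pH 4.5, 8 h arrays stood apart, and the other 3 groups overlapped each other. The log2 difference at 8 h was -1.35 ± 0.22 (adjusted p = 0.000134), with a mean at pH 6 that was 34.5% of the mean at pH 4.5. At 1 h it was -0.15 ± 0.22, with a 95% interval from -0.62 to 0.32 (adjusted p = 0.745). The difference between the effects was -1.20 ± 0.31 (adjusted p = 0.0129). In root tissue of many cell types, fewer cells of a type and less RNA per cell cannot be told apart, which holds for every gene below.

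PUCHI (AT5G18560), which encodes an AP2/ERF transcription factor needed for the ordered divisions of the young lateral root, was not among the 7 genes but is listed with the lateral root genes. Its signals at 8 h were 23.4, 24.5 and 23.8 at pH 6 and 45.2, 48.4 and 41.3 at pH 4.5. At 1 h they were 18.4, 29.2 and 23.8 at pH 6 and 19.8, 23.1 and 19.1 at pH 4.5. As for LBD29, the pH 4.5, 8 h arrays alone were high. PUCHI was lower at pH 6 after 8 h (log2 difference -0.81 ± 0.17, adjusted p = 0.00137) and not called after 1 h (0.16 ± 0.17, adjusted p = 0.633), and these effects differed by -0.97 ± 0.24 (adjusted p = 0.00905). At pH 4.5 it was higher after 8 h than after 1 h (0.99 ± 0.17, adjusted p = 0.000244), while at pH 6 the difference was 0.02 ± 0.17 (adjusted p = 0.951). Of 10 markers of lateral root primordia and pericycle, LBD16, LBD29 and PUCHI were the 3 with a named probe set. Their summed signal was 67.8 to 85.3 at pH 6 and 181 to 202 at pH 4.5 after 8 h, and 87.4 to 113 at pH 6 and 107 to 113 at pH 4.5 after 1 h. LBD16 and LBD29 are among the 7 genes themselves.

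Among the auxin-conjugating enzymes, GH3.1 had the largest early difference. At 1 h its signals were 7.62, 12.9 and 6.86 at pH 6, against 44.7, 38.4 and 53.1 at pH 4.5. At 8 h they were 13.6, 15.3 and 19.6 at pH 6, against 21.3, 24.7 and 23.6 at pH 4.5. The pH 6 arrays were the lower ones at both times without overlap, by a wide margin at 1 h and a narrow one at 8 h. The log2 difference was -1.94 ± 0.21 at 1 h (adjusted p = 3.19e-06), a 3.83-fold lower level at pH 6, and larger in size than that of 99.7% of probe sets. With 2 of the 3 pH 6 arrays under a signal of 10.4, this fold understates the ratio of the signals, whose mean at pH 6 was 20.1% of that at pH 4.5. At 8 h the difference was -0.44 ± 0.21 (adjusted p = 0.129), with a 95% interval from -0.88 to -0.0033, and the 2 effects differed by 1.49 ± 0.30 (adjusted p = 0.00149).

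GH3.3 encodes another enzyme of this class, and its probe set was dim and variable. Its signals at 8 h were 6.12, 4.40 and 17.4 at pH 6 and 12.9, 36.8 and 27.5 at pH 4.5. At 1 h they were 10.3, 2.27 and 10.1 at pH 6 and 16.1, 16.6 and 9.58 at pH 4.5. The groups overlapped at both times. At 8 h the log2 difference was -1.20 ± 0.39 (adjusted p = 0.0297), and at 1 h it was -0.73 ± 0.39, with a 95% interval from -1.55 to 0.10 (adjusted p = 0.284). The probe set passed the filter on dim signals only through the pH 4.5, 8 h arrays (level 11.98 with them and 9.28 without them), so its call at 8 h was not independent of the filter. The call ended when the filter was dropped (adjusted p = 0.0653), when the intensity trend was dropped (adjusted p = 0.0510), and without single 8 h arrays. These were replicates 1 and 2 of pH 6 (adjusted p = 0.0977 and 0.132) and replicates 2 and 3 of pH 4.5 (adjusted p = 0.151 and 0.0916).

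WES1, also called GH3.5, encodes an enzyme that conjugates auxin and also salicylic acid. Its signals at 8 h were 130.0, 125 and 151 at pH 6, against 177, 213 and 197 at pH 4.5. At 1 h they were 128, 112 and 136 at pH 6, against 97.0, 89.95 and 105 at pH 4.5. The pH 6 arrays thus lay under the pH 4.5 arrays at 8 h and above them at 1 h, without overlap at either time. The log2 difference was -0.52 ± 0.11 at 8 h (adjusted p = 0.00185). At 1 h it was 0.35 ± 0.11, with a 95% interval from 0.12 to 0.59, and did not pass the threshold (adjusted p = 0.0532). It did pass without replicate 3 of pH 4.5 at 1 h (adjusted p = 0.0497), without replicate 2 of pH 6 at 1 h (adjusted p = 0.0357) or without replicate 3 of pH 6 at 8 h (adjusted p = 0.0390). The change of the effect between the times, -0.87 ± 0.16, was called (adjusted p = 0.000742).

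**Figure D2:**
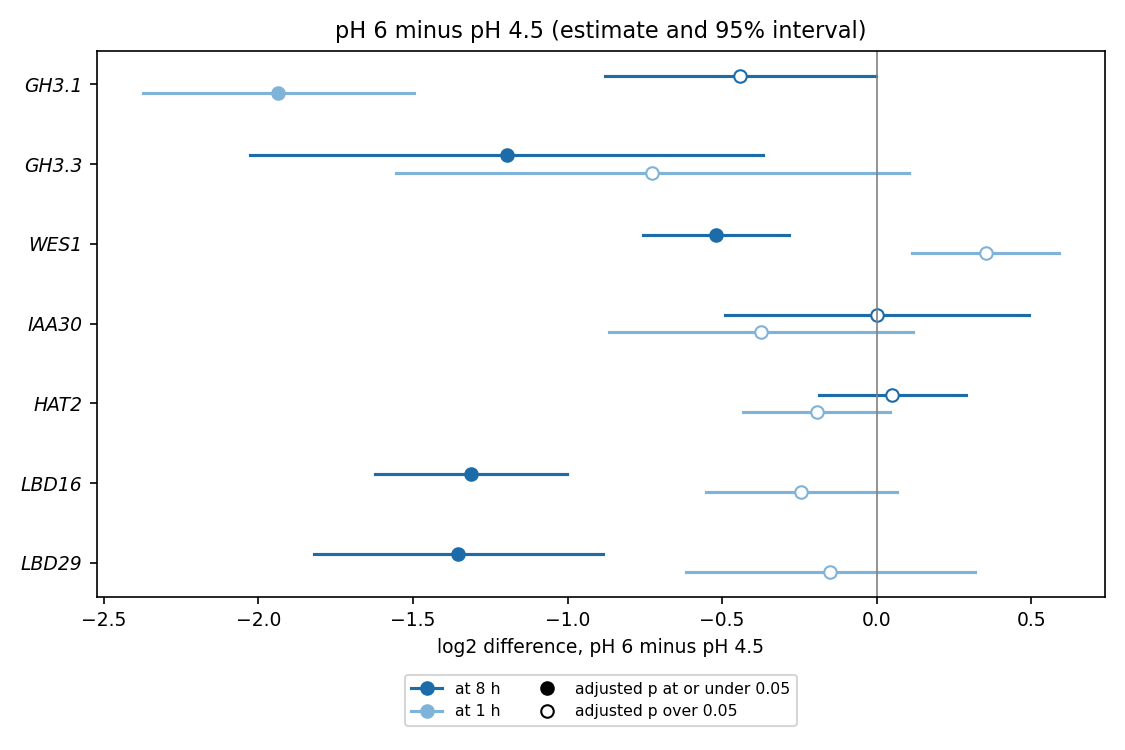
Log2 difference between pH 6 and pH 4.5 (horizontal axis, positive where pH 6 is higher), after 8 h and after 1 h, for each of the 7 genes (vertical axis). Lines are 95% intervals of the limma estimate from 3 arrays against 3. Filled points passed an adjusted p of 0.05. LBD16, LBD29, GH3.3 and WES1 are filled at 8 h and GH3.1 at 1 h.

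IAA30 encodes an Aux/IAA protein that lacks the domain through which the receptors bind most Aux/IAA repressors. At 8 h its signals were 12.2, 12.7 and 19.8 at pH 6 and 16.6, 18.2 and 10.1 at pH 4.5. At 1 h they were 10.97, 12.2 and 9.99 at pH 6 and 15.98, 15.7 and 14.7 at pH 4.5. The pH 6 arrays were below the pH 4.5 arrays at 1 h, while the groups overlapped at 8 h. Neither difference passed the test, with 95% intervals from -0.49 to 0.49 at 8 h (adjusted p = 1.0) and from -0.86 to 0.12 at 1 h (adjusted p = 0.362).

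HAT2 encodes a class II homeodomain-leucine zipper factor that responds early to auxin in seedlings. Its signals at 8 h were 126, 113 and 102 at pH 6 and 113, 101 and 115 at pH 4.5. At 1 h they were 104, 108 and 128 at pH 6 and 133, 121 and 135.4 at pH 4.5. The pH groups overlapped at both times. The log2 difference was 0.05 ± 0.11 at 8 h (95% interval from -0.19 to 0.29, adjusted p = 0.789) and -0.19 ± 0.11 at 1 h (from -0.43 to 0.04, adjusted p = 0.320).

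At 1 h, 1 of the 7 genes was lower at pH 6, GH3.1, and 0 were higher. Of all probe sets 10.7% were called at that time, 5.51% lower and 5.21% higher. The median log2 difference of the 7 genes was -0.24 at 1 h, beside 0.05 over all probe sets. The arrays lay apart without overlap in 3 of the 7 genes, with GH3.1 and IAA30 lower and WES1 higher at pH 6, and 28.0% of all probe sets were apart in either direction (11.5% lower and 16.5% higher). At 1 h the median signals were 39.9 to 40.2 at pH 6 and 38.2 to 38.3 at pH 4.5, and the 3' to 5' signal ratios of actin, a measure of RNA quality, were 9.998 to 17.0 at pH 6 and 18.2 to 21.1 at pH 4.5. Neither range overlapped between the pH groups. The same ratio of GAPDH was 0.928 to 1.26 at pH 6 and 1.25 to 1.47 at pH 4.5, and that of ubiquitin was 2.19 to 2.36 at pH 6 and 2.02 to 2.47 at pH 4.5, and both overlapped. The part of these differences in the 1 h results was not tested. At 8 h the medians and actin ratios overlapped, with medians of 38.4 to 39.7 at pH 6 and 38.5 to 40.04 at pH 4.5, and actin ratios of 14.4 to 19.9 at pH 6 and 15.3 to 20.8 at pH 4.5. Between the times the medians did not overlap at either pH, with higher medians at 1 h for pH 6 and at 8 h for pH 4.5. The actin ratios did overlap between the times at each pH. The part of these median differences in the time results below was not tested.

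The pH effect changed between the times in 4 of the 7 genes, beside 15.4% of all probe sets. In LBD16, LBD29 and WES1 the effect was lower at 8 h than at 1 h, and in GH3.1 it was higher at 8 h, where the negative effect of 1 h had shrunk. Lower and higher changes of the effect were called in 8.27% and 7.15% of all probe sets. GH3.3 (-0.47 ± 0.56, adjusted p = 0.643), IAA30 (0.37 ± 0.33, adjusted p = 0.515) and HAT2 (0.24 ± 0.16, adjusted p = 0.353) did not pass.

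The comparisons of time show at which pH these levels differed between 8 h and 1 h. Without an untreated group at either time, the time spent at a pH cannot be told apart from anything else that differed between the 2 samplings. They use the same arrays as the pH comparisons, so the results are not independent of those above. At pH 4.5, LBD29 and WES1 were higher after 8 h than after 1 h and GH3.1 was lower. LBD29 averaged 60.5 ± 18.6 at 8 h and 25.1 ± 2.35 at 1 h (SD, n = 3 each), a log2 difference of 1.11 ± 0.22 (adjusted p = 0.00102). WES1 averaged 196 ± 17.8 at 8 h and 97.4 ± 7.67 at 1 h (0.98 ± 0.11, adjusted p = 2.84e-06). GH3.1 averaged 23.2 ± 1.74 at 8 h and 45.4 ± 7.37 at 1 h (-0.85 ± 0.21, adjusted p = 0.00528). LBD16 averaged 82.5 ± 11.9 at 8 h and 64.5 ± 1.06 at 1 h, without overlap, but its difference of 0.33 ± 0.15 did not pass (adjusted p = 0.123). HAT2 averaged 109 ± 7.65 at 8 h and 130 ± 7.95 at 1 h, also without overlap, and its difference of -0.24 ± 0.11 did not pass either (adjusted p = 0.144). GH3.3 (0.65 ± 0.39, adjusted p = 0.272) and IAA30 (-0.06 ± 0.23, adjusted p = 0.885) overlapped and were not called. Of all probe sets 23.6% were called in this comparison, 12.5% higher and 11.1% lower at 8 h.

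At pH 6, LBD16 was lower after 8 h and GH3.1 was higher, and the other 5 genes were not called. LBD16 averaged 30.9 ± 5.16 at 8 h and 54.3 ± 8.84 at 1 h (log2 difference -0.74 ± 0.15, adjusted p = 0.00155). GH3.1 averaged 16.2 ± 3.097 at 8 h and 9.14 ± 3.32 at 1 h (0.64 ± 0.21, adjusted p = 0.0379). This call of GH3.1 ended without replicate 1 of pH 4.5 at 1 h (adjusted p = 0.0517), replicate 1 or 3 of pH 6 at 1 h (adjusted p = 0.118 and 0.129) or replicate 2 or 3 of pH 6 at 8 h (adjusted p = 0.0700 and 0.123). WES1 and LBD29 had 95% intervals from -0.13 to 0.34 and from -0.56 to 0.38 at pH 6. Of all probe sets 19.4% were called at this pH, 10.6% lower and 8.86% higher at 8 h.

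The green shoot markers were lower after 8 h than after 1 h at both pH values, and all 3 were called in both comparisons (adjusted p from 0.000129 for PSAN at pH 6 to 0.0253 for PSAN at pH 4.5). Their summed signal was 67.9 to 97.6 at 8 h and 156 to 185 at 1 h at pH 6, and 59.7 to 75.7 at 8 h and 116 to 181 at 1 h at pH 4.5. PSAN had signals of 14.99, 2.73 and 0.626 at pH 6 after 8 h, 2 of them under the level of 10.4. Of the root markers, PYK10 was higher after 8 h at pH 6 (0.45 ± 0.12, adjusted p = 0.0164) and EXPA7 was lower after 8 h at pH 4.5 (-0.55 ± 0.15, adjusted p = 0.0145). Whether these markers and the time differences of the 7 genes are linked was not tested.

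**Figure D3:**
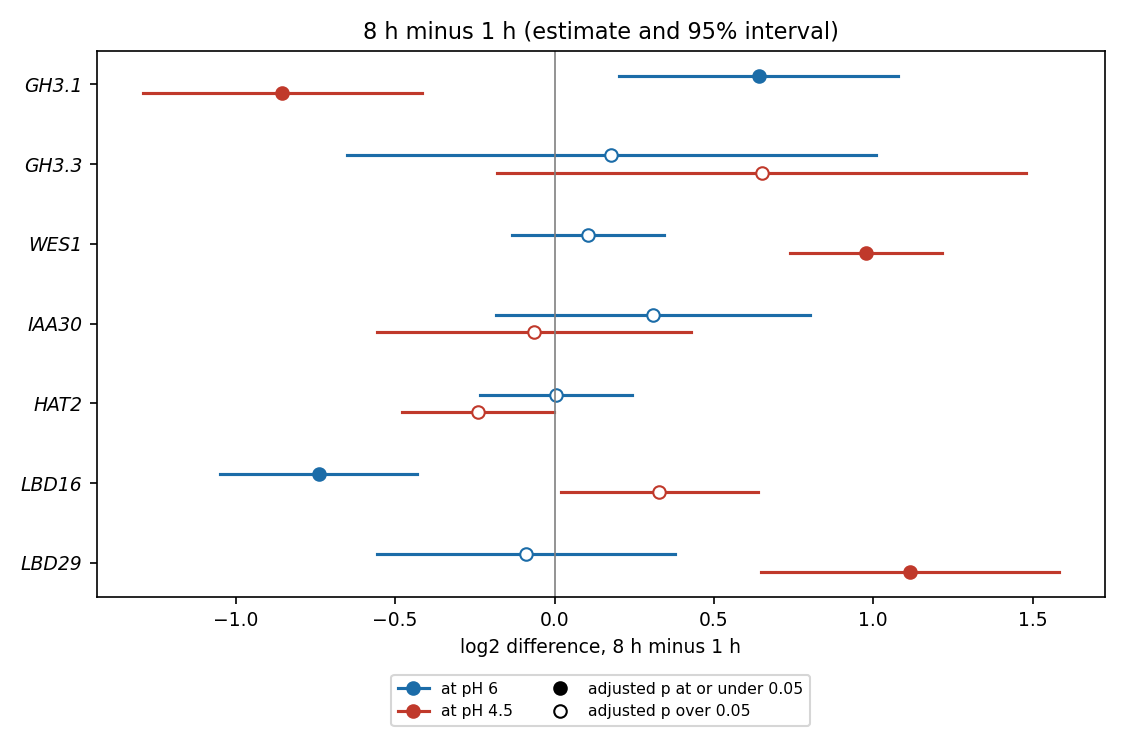
Log2 difference between 8 h and 1 h (horizontal axis, the later minus the earlier) for each of the 7 genes (vertical axis), in blue for pH 6 and in red for pH 4.5. Lines are 95% intervals of the limma estimate from 3 arrays against 3. Filled points passed an adjusted p of 0.05. LBD29 and WES1 are filled on the higher side at pH 4.5, LBD16 is filled on the lower side at pH 6, and GH3.1 is filled on opposite sides at the 2 pH values.

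The order of the 4 group means differed between the genes. LBD16, from highest to lowest, was ordered pH 4.5 at 8 h, pH 4.5 at 1 h, pH 6 at 1 h and pH 6 at 8 h, and the ranges of the middle pair overlapped. LBD29 had the same order, but its 3 lower groups overlapped. GH3.1 ran from pH 4.5 at 1 h through pH 4.5 at 8 h and pH 6 at 8 h to pH 6 at 1 h, with no overlap between neighbours. WES1 ran from pH 4.5 at 8 h through pH 6 at 8 h and pH 6 at 1 h to pH 4.5 at 1 h, with overlap only between the pH 6 groups. In GH3.3, IAA30 and HAT2 every group overlapped its neighbour in the order.

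The fixed lists of auxin and lateral root genes held 136 further loci. Of these, 14 had a probe set under a matching name, and 6 of the 14 passed the filter on dim signals. DAO1, DAO2 and CEP5 had probe sets under no such name and were left out. Of these 6, IAA33 was higher at pH 6 after 8 h, PUCHI and IAA18 were lower, and GH3.17, YUC2 and YUC6 were not called. After 1 h, YUC6 passed the threshold with a higher signal at pH 6, and the other 5 were not called. YUC6 was dim and passed the filter on low signals only through its pH 6, 8 h arrays, and its call ended under many alternatives, so it carries no weight. No auxin response factor, TIR1/AFB receptor or auxin transporter of the lists had a named probe set here, so they are not analysed.

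IAA18 (AT1G51950), an Aux/IAA repressor whose stabilised form blocks lateral root initiation, had signals of 106, 82.7 and 97.5 at pH 6 and 161, 148 and 167 at pH 4.5 after 8 h. All pH 6 arrays were lower, with a log2 difference of -0.71 ± 0.12 (adjusted p = 0.000148). After 1 h its signals were 114, 90.6 and 109 at pH 6 and 127, 132 and 114 at pH 4.5 (-0.25 ± 0.12, adjusted p = 0.217). IAA33 (AT5G57420), an atypical Aux/IAA gene, went the other way, with 26.8, 20.7 and 23.2 at pH 6 and 11.2, 11.1 and 10.4 at pH 4.5 after 8 h (0.89 ± 0.21, adjusted p = 0.00337). After 1 h it had 15.8, 21.1 and 28.98 at pH 6 and 18.7, 22.5 and 17.9 at pH 4.5 (0.10 ± 0.21, adjusted p = 0.813). For neither gene did the change of the effect between the times pass in the main fit (adjusted p = 0.0682 for IAA18 and 0.0822 for IAA33). That of IAA33 did pass with all arrays when the intensity trend was dropped (adjusted p = 0.0414). IAA18 did pass without replicate 1 of pH 6 at 8 h (adjusted p = 0.0462) or replicate 2 of pH 6 at 1 h (adjusted p = 0.0322), and IAA33 without replicate 3 of pH 6 at 1 h (adjusted p = 0.0325). At pH 4.5, IAA18 was higher (0.34 ± 0.12, adjusted p = 0.0431) and IAA33 lower (-0.67 ± 0.21, adjusted p = 0.0246) after 8 h than after 1 h. These calls held in 6 (IAA18) and 8 (IAA33) of the 12 fits that left out an array, and that of IAA18 also ended with no filter (adjusted p = 0.0573). At pH 6 neither gene was called between the times (adjusted p = 0.511 for IAA18 and 0.757 for IAA33).

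GH3.17 (AT1G28130), a conjugating enzyme that prefers glutamate, had signals of 487, 440.1 and 467 at pH 6 and 419, 416 and 400.4 at pH 4.5 after 8 h. After 1 h the signals were 329, 336 and 238 at pH 6 and 403, 399 and 329 at pH 4.5. Neither pH difference passed, with 0.17 ± 0.12 at 8 h (adjusted p = 0.312) and -0.33 ± 0.12 at 1 h (adjusted p = 0.0840). The 1 h difference passed when pH 6 lacked its replicate 2 (adjusted p = 0.0472), when pH 4.5 lacked its replicate 3 (adjusted p = 0.0395) and with the replicate number as a block (adjusted p = 0.0461). At pH 6 it was higher after 8 h than after 1 h (0.63 ± 0.12, adjusted p = 0.000839).

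YUC6 (AT5G25620) encodes a flavin monooxygenase of auxin synthesis, and its probe set was dim. Its signals after 1 h were 26.1, 20.3 and 14.9 at pH 6 and 2.88, 1.77 and 10.6 at pH 4.5. After 8 h they were 14.2, 12.8 and 40.4 at pH 6 and 16.99, 15.8 and 1.43 at pH 4.5. The groups were apart at 1 h and overlapped at 8 h. The log2 difference at 1 h was 1.54 ± 0.48 (adjusted p = 0.0454), and at 8 h it was 0.87 ± 0.48 (adjusted p = 0.193). The 1 h call ended without any of the 3 arrays of pH 6 at 1 h (adjusted p = 0.137, 0.0968 and 0.0667 without replicates 1, 2 and 3), without replicate 1 or 2 of pH 4.5 at that time (adjusted p = 0.140 and 0.170), and without replicate 1 of pH 6 at 8 h (adjusted p = 0.0535). It also ended with no filter (adjusted p = 0.103), with no intensity trend (0.0905), with the replicate number as a block (0.0591), with a constant of 1 (0.0538) and with each array centred on its median (0.0507). YUC2 (AT4G13260), a gene of the same enzyme family, was at 12.1, 17.7 and 22.2 at pH 6 and 12.7, 13.1 and 14.98 at pH 4.5 after 8 h (0.25 ± 0.28, adjusted p = 0.544), and its 1 h difference was 0.19 ± 0.28 (adjusted p = 0.746).

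The 8 listed genes that did not pass the filter were IAA20, IAA29, IAA31, IAA34, GH3.9, YUC4, UGT84B1 and CR4, also known as ACR4. Their group means lay between 0.718 (UGT84B1, pH 6 at 1 h) and 11.4 (IAA20, pH 6 at 8 h), and no difference is given for them.

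**Figure D4:**
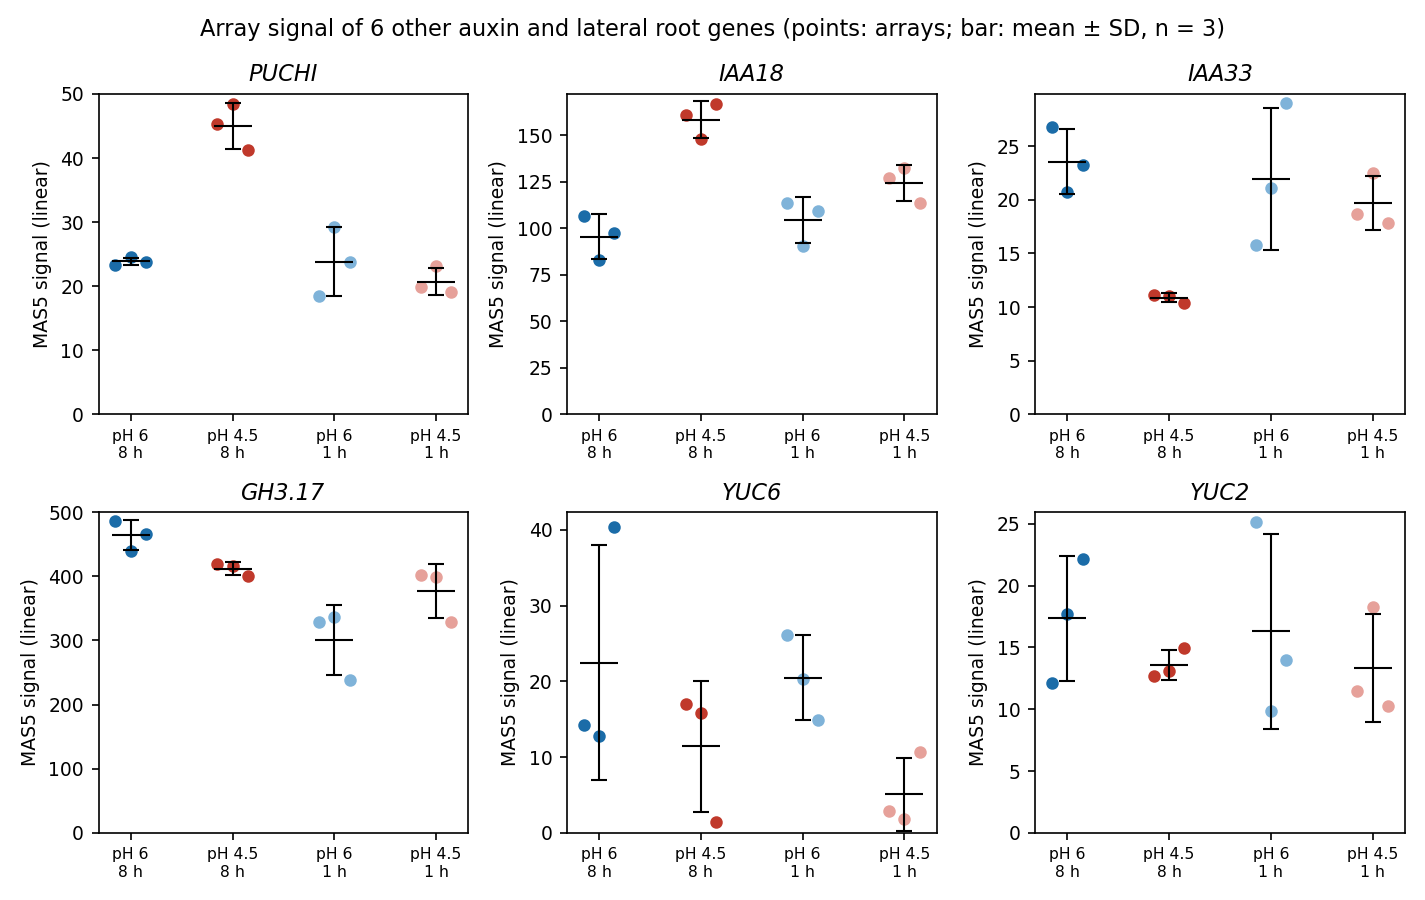
Signal (linear MAS5 scale, vertical axis from 0) of the 6 further auxin and lateral root genes that passed the filter, by group (horizontal axis). Points are arrays and black bars are the mean ± SD of 3. PUCHI and IAA18 are highest in the pH 4.5, 8 h arrays, where IAA33 is lowest.

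Among 8793 other probe sets with a single named gene, those most like each called gene were found by the root mean square difference of log2 values, centred per probe set, over the 12 arrays. A smaller value means a closer pattern only beside the genes' own spread, since it is also small where both genes vary little. Arrays of a group are not independent points of this measure. LBD16 was nearest to AT5G18310 (0.14) and AT5G25440 (0.14), while its own values spread by 0.50 about their mean. LBD29 was nearest to UGT76B1 (AT3G11340, 0.21) and AT5G52810 (0.25), against an own spread of 0.60. UGT76B1 had group means of 223 ± 24.8 at pH 6 and 497 ± 40.9 at pH 4.5 after 8 h, and 211 ± 33.4 at pH 6 and 247 ± 26.9 at pH 4.5 after 1 h (SD, n = 3 each). As in LBD29, the pH 4.5, 8 h group alone was high, a likeness that the search itself selects for.

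GH3.1 was nearest to AT1G02810 (0.27) and AT3G25790 (0.28), with an own spread of 0.73. AT1G02810 averaged 153 ± 14.5 at pH 6 and 283 ± 21.4 at pH 4.5 after 8 h, and 130.2 ± 7.58 at pH 6 and 478 ± 35.7 at pH 4.5 after 1 h. WES1 was nearest to AT5G17010 (0.13) and AT1G54540 (0.15), with an own spread of 0.37. GH3.3 had less close neighbours, AT1G59740 (0.43) and AT2G25690 (0.45), with an own spread of 0.74. Among the 7 genes themselves, the smallest value of the 21 pairs was that of IAA30 with HAT2 (0.31), neither of which was called in any comparison. Their own spreads were only 0.25 for IAA30 and 0.14 for HAT2, both under 0.31. The small value thus reflects that both varied little, and it does not show a shared pattern. WES1 differed from IAA30 by 0.43 and from LBD29 by 0.43, and LBD16 differed from LBD29 by 0.45. GH3.1 with WES1 was the widest pair (0.90).

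**Figure D5:**
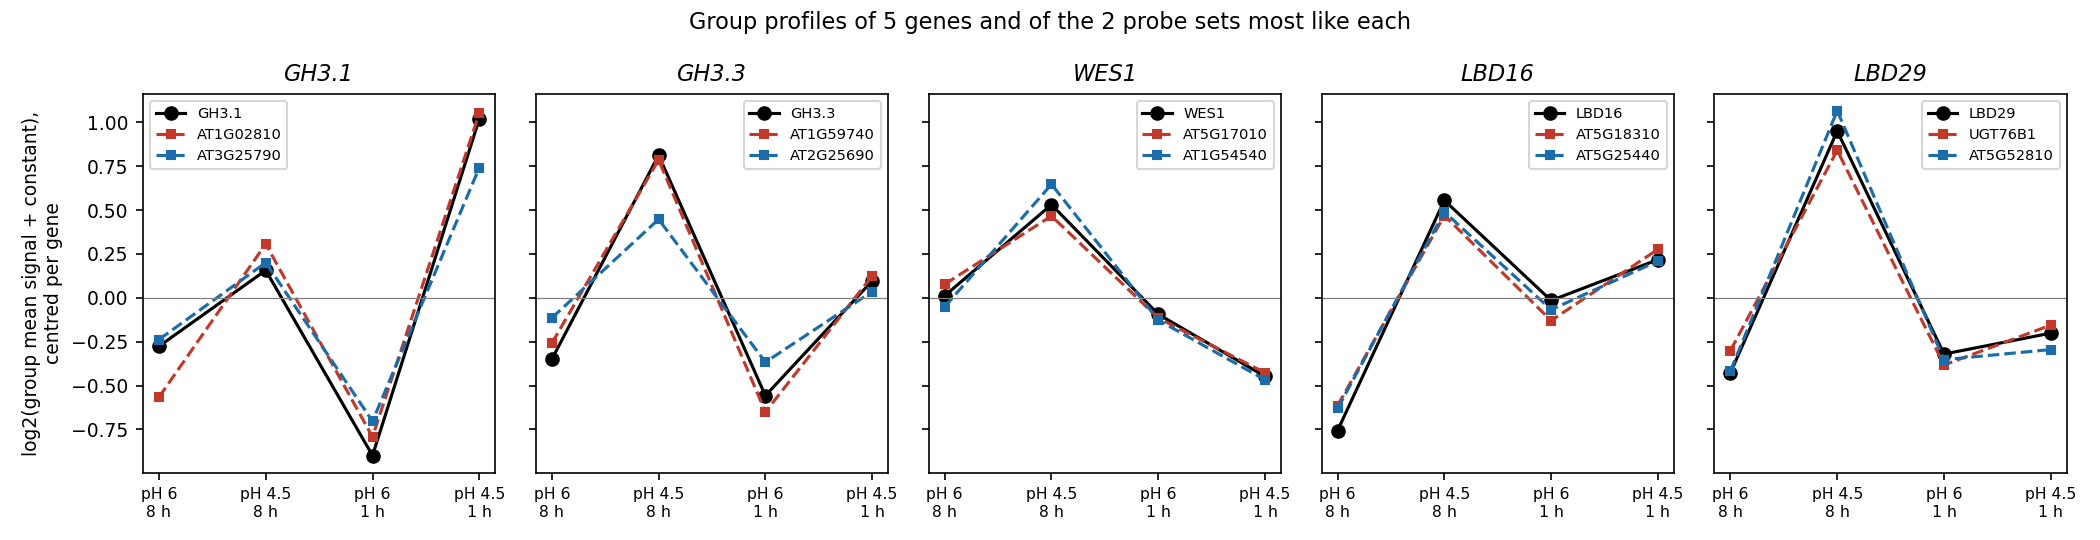
Group profiles of the 5 genes called in at least 1 comparison (black) and of the 2 probe sets most like each (dashed), as log2(group mean signal + 3.92) centred per gene (vertical axis), by group (horizontal axis). LBD29, UGT76B1 and AT5G52810 peak together in the pH 4.5, 8 h group, and GH3.1, AT1G02810 and AT3G25790 peak in the pH 4.5, 1 h group. The likeness follows from the choice of the nearest probe sets over the same arrays.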

How the data were processed

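Root RNA of 12 samples was hybridised to 1 ATH1 array each, after biotin labelling by the 3' IVT procedure per the labels' protocols. The submitters' processing notes name MAS5 and GCOS, without versions, so the deposited values are the authors' signal intensity on a linear scale. Leaving out the top and bottom 2% of values, every array averages 100. The 22810 probe sets include 64 controls. The probe table names 1 gene for 13513 probe sets, several for 503 and none for 8730, and 13436 matched RefSeq (TAIR10.1) by gene number. No sequences are shown.

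Signals were analysed as log2(signal + 3.92), where the constant is 10% of the median. Controls and probe sets under the 30th percentile of mean log2 signal were left out, and 15922 were tested. The fit used limma 3.58.1 (R 4.3.3) on all 12 arrays, with a mean for each of the 4 groups (eBayes with trend, 8 residual and 9.93 prior degrees of freedom), with two-sided p-values adjusted by Benjamini-Hochberg over all probe sets. Files were read and figures drawn in Python 3.11.15 (numpy 2.4.6, pandas 2.3.3, matplotlib 3.10.9). The number of arrays limits the precision, with a median SE of 0.14 for a difference at 8 h. The procedure was tested on simulated data.

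The 7 genes, the lists and the tests were chosen with earlier results of these data known. Named were the 7 genes, up to 3 called genes per list and pH comparison, and the 2 nearest probe sets of each called gene. GH3.17, YUC2 and the listed genes that were not called are named beyond that rule, to account for every listed gene with a probe set under a matching name. SAUR genes were sought by name and 0 were found. Of the 143 listed loci, DAO1, DAO2 and CEP5 were left out because RefSeq gives their loci no such symbol. Each of these loci did have a probe set, but its values are not given here, so the lists are not covered whole. The deviations of same-numbered replicates from their group means had 18 correlations from -0.088 to 0.166, of which 5 were above 0.1. Those between replicates numbered 2 were all positive (0.033 to 0.166), so a weak pairing remains possible. The main fit used no block for the replicate number. With it, 4582 probe sets were called for pH at 8 h and 1839 at 1 h, against 4416 and 1706.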

Additional observations from a re-analysis of the deposited data

Results flagged for a closer look

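The pH effect (pH 6 minus pH 4.5) differed between the times by a direct test of that difference in 6 of the 13 genes tested, 4 of the 7 and 2 of the 6 others (GH3.17 and PUCHI), beside 15.4% of all probe sets. As the effect at 8 h minus the effect at 1 h, on the log2 scale, the values were 1.49 for GH3.1, -0.87 for WES1, -1.07 for LBD16, -1.20 for LBD29 and -0.97 for PUCHI. For these 5 genes the call held without any single array, with adjusted p-values up to 0.0478 (LBD29). For GH3.17 the value was 0.50 (adjusted p = 0.0492), and the call held in only 3 of the 12 fits that left out an array, those without replicate 1 or 2 of pH 6 or replicate 3 of pH 4.5 at 1 h, with adjusted p-values from 0.0233 to 0.116 over the 12. It also ended with a constant of 1 (adjusted p = 0.0513), no filter (0.0797), quantile normalization (0.0778) and no intensity trend (0.108).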

How the results depend on the processing

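For the 7 genes, 35 differences were recomputed under 21 alternatives, 12 of which left out an array. Of the 708 values obtained, 689 kept their side of the threshold, 14 lost the call, 5 gained it and 0 called values changed sign. Where neither setting passed, the sign changed in 17, all of differences of at most 0.18. The counts of called genes moved by over 1.5 times as follows. At 8 h the pH count of 4 became 2 with the filter at the 50th percentile, where 3 of the 7 genes remained to be tested, and the count of changed pH effects likewise became 2 of 4. With that filter the time counts became 1 at pH 6 and 1 at pH 4.5, against 2 and 3. The time count at pH 6 was also 1 with a constant of 16, with no filter, and with only the 2 groups compared, GH3.1 being the gene lost (adjusted p = 0.0656, 0.0734 and 0.135). The pH count at 1 h was 2 with the replicate number as a block, where WES1 passed (adjusted p = 0.0388), and the block changed no other call of the 7 genes. Among the 6 others it brought GH3.17 at 1 h past the threshold and ended the 1 h call of YUC6. WES1 passed at 1 h with the stricter filter too (adjusted p = 0.0457), where the count stayed at 1 because GH3.1 was not tested. Leaving out single arrays gave 3 to 4 genes for pH at 8 h, 1 to 2 for pH at 1 h, 4 for changed effects, 1 to 2 for time at pH 6 and 3 for time at pH 4.5. Over all probe sets, centring each array on its median gave 4540 pH calls at 8 h, 2559 of them higher, against 4416 and 2312, and 1644 at 1 h, 661 of them higher, against 1706 and 829. The same centring turned the balance of directions for changed effects (1428 of 2554 higher, against 1139 of 2455) and for time at pH 4.5 (1749 of 3746 higher, against 1997 of 3761). The 6 other genes lost a call in 38 and gained one in 8 of 604 values, with 0 changes of sign among called values. The low signals of GH3.1, GH3.3, IAA30 and YUC6 limit what their differences show, since array noise and the added constant weigh most there.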
